A study of Mus musculus with 6 samples.

Results

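The genes for the proteins of the cytosolic ribosome were examined for chromatin accessibility in haematopoietic stem cells of the long-term class (LT-HSCs), the rare bone marrow cells from which the blood is renewed. The genes were chosen by symbol: protein-coding mouse genes of the annotation whose symbol starts with Rpl or Rps and a number, without the Rps6k genes, which encode kinases, and together with Rplp0, Rplp1, Rplp2 and Rpsa. That rule gave 91 genes, 56 of the large subunit series and 35 of the small subunit series. A peak belonged to a gene when its midpoint lay within 1 kb of either end of the gene. In all, 86 peaks of the 42632 in the table qualified, and they lay at 78 of the 91 genes, 49 large-subunit and 29 small-subunit. The symbols and the distance limit use no value measured in these cells, but the peaks themselves come from the consensus list of the series. The other 13 genes had no peak within 1 kb in the table used here and are Rpl10l, Rpl17, Rpl31-ps12, Rpl32l, Rpl37rt, Rpl38, Rpl39l, Rps19bp1, Rps2, Rps23rg1, Rps25, Rps27l and Rps27rt. Rps19bp1 and Rps23rg1 meet the symbol rule without encoding a ribosomal protein.

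The assay was ATAC-seq: the transposase Tn5 cuts open DNA and inserts sequencing adapters, so that a peak with more reads was more open. Confined cells (3 libraries) were kept for 13 h in a buffered salt solution with serum at low oxygen, left for 0.5 h to attach to glass coated with fibronectin, and then held for 2 h below a coverslip on pillars of 5 µm before being lifted off with a dissociation reagent. Unconfined cells (3 libraries) spent 16 h in the same medium, with no attachment step named for them. All cells came from bone marrow of C57BL/6 mice that were 10 to 16 weeks old and were sorted as LT-HSCs by absence of lineage markers, CD34 and Flt3 and presence of Sca1 and cKit. Attachment, detachment and confinement cannot be told apart, since they went together in each confined library. The samples are described as biological replicates, and nothing says whether each came from a separate animal, so p-values measure the spread between these samples.

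Ribosomal proteins assemble with ribosomal RNA into the small subunit, which decodes the messenger RNA, and the large subunit, which joins the amino acids. Their genes are scattered over the genome and are among the most strongly transcribed genes of most cells. The transcripts usually begin with a run of pyrimidines, the 5′ terminal oligopyrimidine tract, through which the mTORC1 pathway controls their translation. Haematopoietic stem cells are known for a low rate of protein synthesis, and loss of a single copy of several ribosomal protein genes causes anaemia in humans.

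The 86 peaks lay on 19 chromosomes, with 18 of them on chromosome 7, and all were 700 bp wide. The median distance from the midpoint to the nearest gene end was 101.5 bp, 43 peaks were within 100 bp and 9 lay beyond 500 bp. Strand was known for the 70 genes that matched a RefSeq promoter, which placed 56 peaks at the 5′ end of the gene and 8 at the 3′ end and left 22 without an assigned end. A second protein-coding gene also ended or began within 1 kb of 20 of the peaks, for example Nkiras1 beside Rpl15 and Card6 beside Rpl37, and accessibility there belongs to either gene.

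Promoter sequences are shown for the genes on which the comparison of single peaks turned, which are those among the 6 smallest p-values in either direction whose peak lay at an assigned 5′ end. Rps20, Rpl8 and Rps29 had no assigned end, and the Rps18 peak in this group lay at the 3′ end. Each run covers 80 bases before the annotated transcription start and 20 bases from it, 5′ to 3′ on the strand of the gene, from RefSeq on GRCm38.p6. Capitals mark the letters found by a motif search on both strands: CCGGAAG (ETS factors), TCTCGCGA (ZBTB33 and related factors), GGGCGG (GC box), CCAAT (NFY) and a pyrimidine tract, defined as a C followed by 4 or more C or T and beginning within 10 bases before to 15 bases after the start. The first set holds genes whose peak had the smallest p-values among those with a negative fold change.
Rpl37: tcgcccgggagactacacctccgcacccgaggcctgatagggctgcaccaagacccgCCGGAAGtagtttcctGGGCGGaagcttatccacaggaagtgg
Rps19: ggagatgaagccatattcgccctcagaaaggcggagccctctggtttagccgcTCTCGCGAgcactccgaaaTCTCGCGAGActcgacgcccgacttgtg
Rpl13a: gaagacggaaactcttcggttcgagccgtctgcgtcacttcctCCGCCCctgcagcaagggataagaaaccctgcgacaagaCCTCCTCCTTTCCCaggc
Rpl15: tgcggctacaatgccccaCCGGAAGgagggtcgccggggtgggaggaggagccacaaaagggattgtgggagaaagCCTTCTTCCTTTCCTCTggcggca
Rps3a1: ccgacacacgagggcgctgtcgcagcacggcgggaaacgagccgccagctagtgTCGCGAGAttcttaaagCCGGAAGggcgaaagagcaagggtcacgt

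These runs lay at chr15:5116533-5116632 (plus strand), chr7:24884512-24884611 (plus strand), chr7:45128726-45128825 (minus strand), chr14:18270967-18271066 (minus strand) and chr3:86142649-86142748 (minus strand). Rpl37, Rpl15 and Rps3a1 held the ETS letters close to the start, and Rps19 and Rps3a1 held the ZBTB33 letters. A pyrimidine tract was found at Rpl13a and Rpl15. The next set holds genes whose peak had the smallest p-values among those with a positive fold change.
Rpl10a: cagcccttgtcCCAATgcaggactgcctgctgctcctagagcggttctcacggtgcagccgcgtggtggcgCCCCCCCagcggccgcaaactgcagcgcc
Rps16: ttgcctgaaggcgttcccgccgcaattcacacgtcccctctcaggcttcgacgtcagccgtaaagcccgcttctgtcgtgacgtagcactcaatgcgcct
Rps15: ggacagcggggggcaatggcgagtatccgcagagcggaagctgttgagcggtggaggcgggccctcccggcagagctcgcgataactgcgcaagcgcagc

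The second set lay at chr17:28328391-28328490 (plus strand), chr7:28350609-28350708 (plus strand) and chr10:80292351-80292450 (plus strand). Rpl10a held CCAAT and a pyrimidine tract, while none of the letters searched were present in the printed stretch of Rps16 or Rps15. An absent match says only that these letters are not in this window.

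Over the full promoter of 300 bases (250 before the start and 50 from it), the ETS letters were present in 25 of 70 ribosomal protein promoters, or 35.7%, against 11.8% of 17422 promoters of other protein-coding genes and 11.9% of all 17492. TCTCGCGA was present in 10 of 70, or 14.3%, against 1.48% of the others and 1.53% of all. A pyrimidine tract occurred in 57.1% of the ribosomal protein promoters and 31.0% of the others. For this count the C and the 4 letters after it all had to lie within 10 bases before to 15 bases after the start, which is narrower than the marking above. A tract that began exactly at the annotated start occurred in 20% and 2.10%. The letters of YY1 (AAGATGG) had shares of 14.3% and 6.32%, those of CRE (TGACGTCA) 7.14% and 2.31%, and the GC box 57.1% and 46.3%. For TATAAA the shares were 12.9% and 13.3%, for the E-box CACGTG 7.14% and 7.92%, and for CCAAT 31.4% and 39.2%. Each motif was counted by itself, whether or not it overlapped another. The promoters had a median of 57.0% G and C against 56.3% in other genes, and a median of 21 CpG dinucleotides against 13. These shares are descriptions of the sequence and were not tested.

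**Figure D1:**
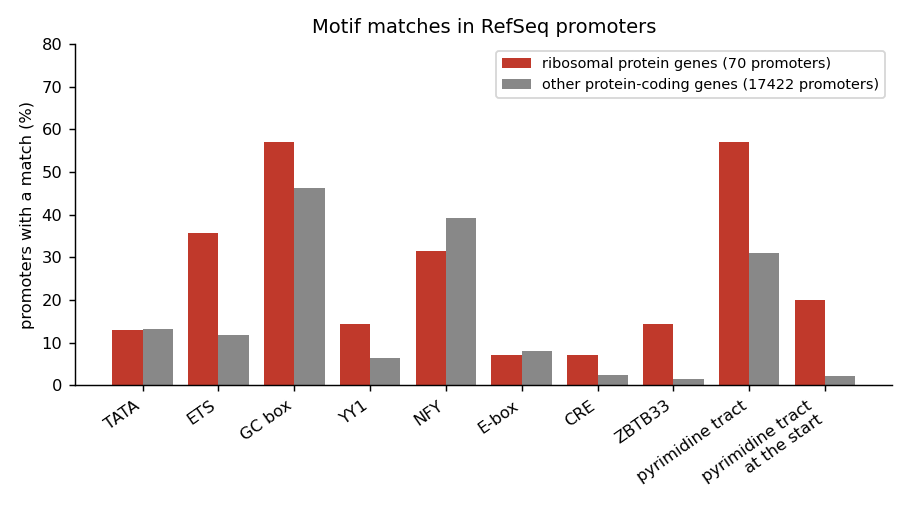
Share of promoters (percent, vertical axis) holding each motif, for 70 ribosomal protein genes (red) and 17422 other protein-coding genes (grey), over 300 bases around the annotated start. The ETS letters (35.7% and 11.8%), the ZBTB33 letters (14.3% and 1.48%) and a pyrimidine tract at the start (20% and 2.10%) were more frequent in ribosomal protein genes. So were the tract near the start, YY1, CRE and the GC box.

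The table held 340922, 221390 and 128257 counts in peaks in confined libraries 1 to 3, against 304898, 1229478 and 983863 in unconfined libraries 1 to 3. A ribosomal protein peak had a median of 11, 5 and 3 counts in the confined libraries and 13, 50.5 and 47.5 in the unconfined ones, so that a single peak in a confined library often rested on very few counts. Across these peaks, confined libraries 2 and 3 also correlated less with the unconfined libraries than confined library 1 did, with values given below. Markers checked the sort only in part: 9 peaks at 6 of 9 LT-HSC genes averaged 1.02 ± 0.04 times the mean peak in confined libraries and 1.22 ± 0.11 in unconfined libraries. On that scale B cell peaks (5) stood at 0.909 and 0.571, myeloid peaks (2) at 0.606 and 0.479, and T cell peaks (2) at 0.953 and 1.82, all as means of 3 confined and 3 unconfined libraries. The T cell peaks went opposite ways, with 93.0 ± 42.6 CPM (depth-scaled counts) in confined and 164 ± 64 CPM in unconfined libraries at Cd3d, and 66.1 ± 55.3 CPM in confined and 15.5 ± 4.7 CPM in unconfined libraries at Tcf7. Their part in the results below was not tested. In bulk libraries a smaller number of cells with an open site and a less open site in each cell cannot be told apart.

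Ribosomal protein peaks took a smaller share of the counts in peaks in confined than in unconfined cells. They held 0.301%, 0.200% and 0.230% of all counts in confined libraries 1 to 3, against 0.422%, 0.413% and 0.475% in unconfined libraries 1 to 3. The highest confined library lay below the lowest unconfined library, and their 95% Clopper-Pearson intervals, which cover counting error only, ended at 0.320% and began at 0.402%. The means were 0.244 ± 0.052% in confined and 0.437 ± 0.034% in unconfined libraries (SD, n = 3 each), a difference of -0.193 percentage points. Because the 86 peaks make up 0.202% of all peaks, the same values can be read as a level relative to the mean peak of the library, which is 1: 1.49, 0.992 and 1.14 in confined libraries, against 2.09, 2.05 and 2.36 in unconfined libraries. Within the 3 batches that the labels number, each holding 1 library of either group, the difference was -0.121, -0.213 and -0.245 points. No test was run on this sum over the set.

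Peaks at the ends of protein-coding genes in general shared this pattern. The 11187 other gene-end peaks averaged 0.993 ± 0.153 times the mean peak in confined libraries and 1.54 ± 0.08 in unconfined libraries. The 79 peaks of mitochondrial ribosomal protein genes, whose products build the separate ribosome inside mitochondria, averaged 1.03 ± 0.11 in confined and 1.65 ± 0.09 in unconfined libraries. The ratio of confined to unconfined mean was 0.558 for ribosomal protein peaks, 0.643 for other gene-end peaks and 0.628 for mitochondrial ribosomal protein peaks. Among counts at gene ends alone, ribosomal protein peaks, which are 0.763% of gene-end peaks, took 0.971%, 0.837% and 0.959% in confined libraries, against 1.02%, 1.07% and 1.10% in unconfined libraries.

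**Figure D2:**
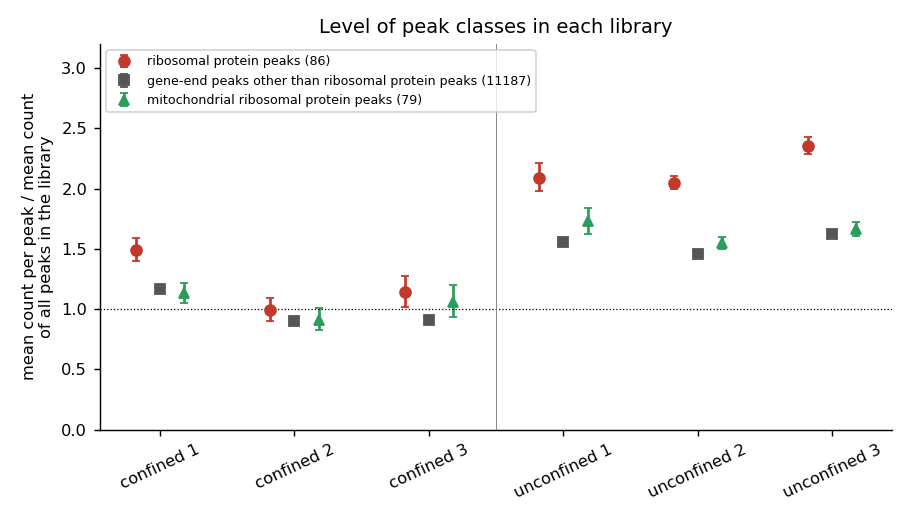
Level of each peak class in each library (vertical axis, mean count per peak divided by the mean count of all peaks in that library), for confined libraries on the left and unconfined libraries on the right, with 95% Clopper-Pearson intervals for counting error. Red circles are the 86 ribosomal protein peaks, grey squares the 11187 other gene-end peaks and green triangles the 79 mitochondrial ribosomal protein peaks. All classes were lower in each confined library than in any unconfined library.

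Levels varied with the position of the peak. Peaks at the 5′ end (56) averaged 1.12 ± 0.36 times the mean peak in confined libraries and 2.29 ± 0.20 in unconfined libraries, while those at the 3′ end (8) averaged 1.05 ± 0.05 and 1.23 ± 0.12. Peaks of the large subunit series (52) stood at 1.12 ± 0.30 in confined and 2.13 ± 0.17 in unconfined libraries, and those of the small subunit series (34) at 1.35 ± 0.24 and 2.21 ± 0.16. The small-subunit value includes the Rps29 peak described below. Peaks that also lay at another coding gene (20) had 1.09 ± 0.26 in confined and 2.11 ± 0.15 in unconfined libraries, close to the 1.24 ± 0.26 and 2.18 ± 0.17 of the 66 peaks with no such neighbour. Among 5′ peaks, the median level of the 20 whose promoter holds the ETS letters was 1.21 in confined and 2.37 in unconfined libraries, and that of the 36 without them 1.17 and 1.89. For the ZBTB33 letters the medians were 1.04 and 1.92 for the 10 peaks with a match, and 1.21 and 1.94 for the 46 without.

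At 8 genes there was a pair of peaks, and for most of them the ends could be assigned. In unconfined libraries the 5′ peak exceeded the 3′ peak at Rpl41 (4.84 and 2.26), Rps19 (5.47 and 0.759), Rps18 (2.83 and 1.34), Rps15a (1.65 and 0.381) and Rps9 (1.68 and 1.01), whereas at Rpl4 they were near each other (1.07 and 1.11). In confined libraries the 5′ and 3′ values were 1.65 and 1.90 at Rpl41, 1.55 and 0.939 at Rps19, 1.63 and 1.24 at Rps18, 0.728 and 0.992 at Rps15a, 1.33 and 0.903 at Rps9, and 0.448 and 0.802 at Rpl4. At Rps19, Rps18 and Rps9 the 5′ peak kept the higher mean in confined cells by a smaller margin, and at Rpl41 and Rps15a the 3′ peak had the higher mean there. At Rps15a this rested on 7, 4 and 4 counts at the 3′ peak and 6, 4 and 2 at the 5′ peak. At Rpl41 the 5′ peak was still the higher in confined library 1 (3.00 and 1.63). The 3′ peaks of Rpl41, Rps18 and Rpl4 also lay at ends of Zc3h10, B3galt4 and Snapc5.

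Taken peak by peak on this scale, the 3 confined libraries all lay below the 3 unconfined libraries at 41 of the 86 peaks, or 47.7%, and above them at 2, which were Rpl8 and the 3′ peak of Rps15a. The remaining 43 overlapped. The same complete separation downwards was found at 31.4% of all gene-end peaks and 13.2% of all peaks. Lower values in confined than in unconfined cells in each of the 3 batches were seen at 53 of the 86 peaks, against 40.5% of gene-end peaks and 18.3% of all peaks. In unconfined libraries the peaks were open in comparison with other gene ends: their median level ranked at the 73.4th percentile of gene-end peaks, 73 of 86 were above the median and 15 were in the top 10%.

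**Figure D3:**
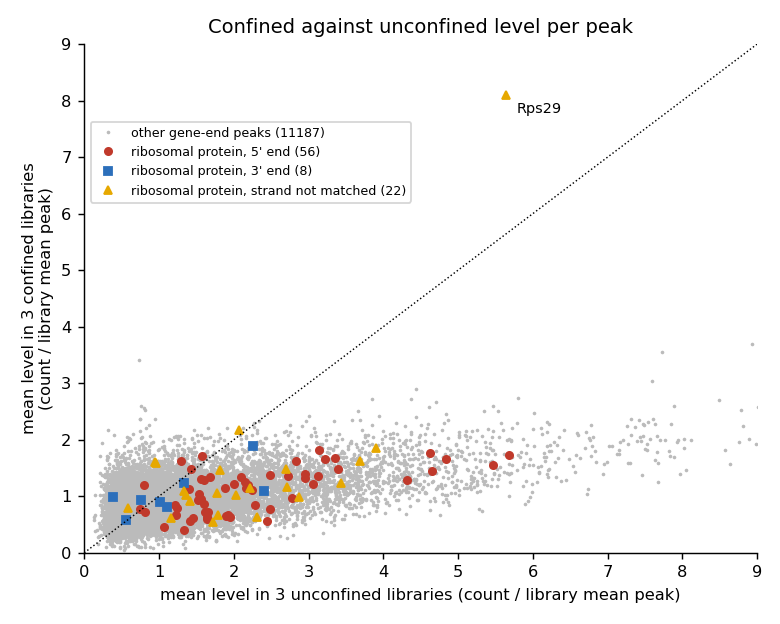
Mean level of each peak in 3 confined libraries (vertical) against 3 unconfined libraries (horizontal), both as count divided by the library's mean count per peak. Grey dots are other gene-end peaks, of which 30 lie outside the axes at 9; red circles, blue squares and yellow triangles are ribosomal protein peaks at 5′ ends, 3′ ends and ends not assigned, and the dotted line marks equal levels. Most ribosomal protein peaks lie below the line, and the Rps29 peak, at 5.64 unconfined and 8.10 confined, lies above the line.

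The order of openness among the 86 peaks was similar in the unconfined libraries and less so in confined libraries 2 and 3. Spearman correlation across the peaks was 0.708 to 0.890 between unconfined libraries, 0.612 to 0.669 between confined library 1 and the unconfined libraries, 0.199 to 0.277 for confined library 2 and 0.0328 to 0.172 for confined library 3. Between confined libraries it was 0.163 to 0.264. The 86 points share the library, its depth and the peak set, and the coefficients describe these libraries without a test. Counts per peak were lower in confined libraries 2 and 3, and the part of depth in these values was not tested.

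**Figure D4:**
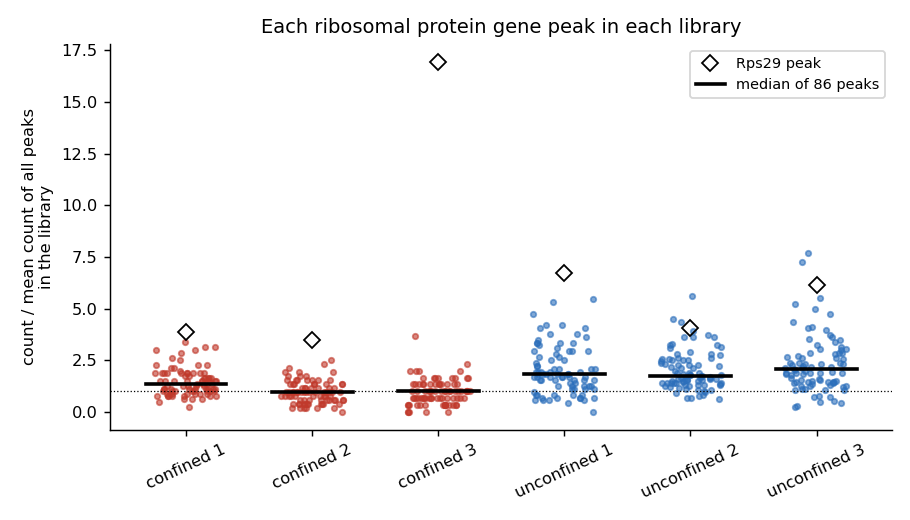
Level of each of the 86 ribosomal protein peaks (vertical axis, count divided by the library's mean count per peak) in confined libraries (red) and unconfined libraries (blue); black bars are medians and open diamonds the Rps29 peak. The diamond reaches 16.9 in confined library 3, against 3.88 and 3.47 in confined libraries 1 and 2.

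When each peak was tested against the replicate spread, no ribosomal protein peak passed. The test (edgeR's quasi-likelihood test with counts scaled by TMM, which aligns the bulk of tested peaks, and Benjamini-Hochberg adjustment) covered 63 of the 86 peaks, at 60 genes, after a filter on low counts. At an adjusted p under 0.05, 0 of the 63 were higher and 0 lower in confined cells, against a background of 5.79% higher and 2.42% lower among the 9084 peaks tested. At an unadjusted p under 0.05, 12 of the 63 differed (19.0%, against 25.1% of all tested peaks), 8 lower and 4 higher. DESeq2 and limma-voom also called 0. The smallest adjusted p was 0.0727, at Rpl37, and the median standard error of a log2 fold change was 0.38. Fold changes on this scale ran from -1.14 at Rps20 to 1.19 at Rpl8, with 43 negative and 20 positive. They cover only peaks that passed the filter, which is described below. Their median was -0.30, against -0.02 over all tested peaks, -0.26 over tested gene-end peaks and -0.25 over the 39 tested mitochondrial ribosomal protein peaks. Large-subunit peaks had a median of -0.25 (39 tested) and small-subunit peaks -0.30 (24 tested).

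**Figure D5:**
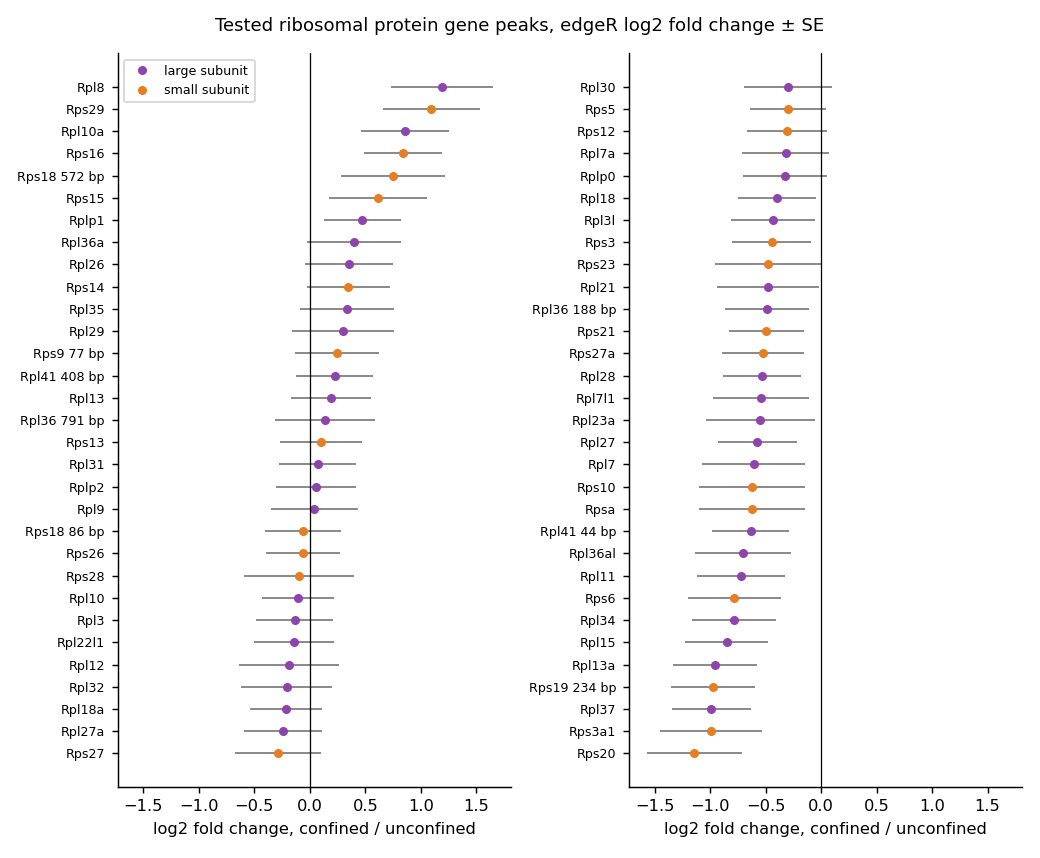
Log2 fold change of confined over unconfined cells (horizontal axis, edgeR with TMM scaling) with its standard error as a grey line for 62 of the 63 tested ribosomal protein peaks, from the highest to the lowest, large subunit in purple and small subunit in orange; a distance in bp separates a gene's paired peaks. Values run from 1.19 at Rpl8 to -1.14 at Rps20, and none passed an adjusted p of 0.05.

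Which peaks were tested and how libraries were scaled changed this count. The filter asked for a CPM (depth-scaled count) of about 31.0 in at least 3 libraries, which 52 of the 63 met in all 3 unconfined libraries and 8 in all 3 confined ones, and Rpl8 met it in the confined libraries with at most 1 unconfined library. Rps20, the lowest fold change, averaged 15.1 CPM of the library total in confined and 54.2 in unconfined libraries, and met it through the unconfined ones. The 63 are therefore not all members, and a peak could enter through the group where it was high. The range and the split of signs among the 63 are subject to this selection. Without the filter all 86 peaks were tested: 11 were lower and 0 higher, against 4.27% lower among all 42632 peaks and 11.7% among the 11273 gene-end peaks. They included Rps20, Rps3a1, Rpl37, Rpl34, Rps6, Rps19 (5′ peak), Rpl15, Rpl13a, Rpl11 and Rpl36al, with log2 fold changes from -1.99 to -1.53. The median of all 86 was then -1.05, against 0.12 over all peaks and -0.58 over gene-end peaks. With library totals as the only scaling, 21 of 63 were lower, against 25.2% of the 9084 tested peaks, but with that scaling the median over all tested peaks was itself -0.68 and that of ribosomal protein peaks -0.94. Relative to the median of all tested peaks, ribosomal protein peaks stood at -0.28 with TMM and -0.26 with totals. Most of this was shared by gene-end peaks, whose median with totals was -0.92. Relative to tested gene-end peaks, ribosomal protein peaks stood at -0.04 with TMM, -0.02 with totals and -0.46 without the filter. With DESeq2, limma-voom and the replicate block they stood at 0.02, 0.13 and 0.03.

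Among peaks with a negative fold change, Rpl37, a zinc-binding protein of the large subunit, had the smallest p. Its peak (chr15:5116150-5116849) had 15, 5 and 3 counts in confined libraries, against 27, 113 and 121 in unconfined libraries. Relative to the mean peak these were 1.88, 0.963 and 0.997 in confined cells and 3.78, 3.92 and 5.24 in unconfined cells, without overlap. The log2 fold change was -0.99 ± 0.36 (SE), with an edgeR adjusted p of 0.0727. Rps20, a protein of the head of the small subunit, had relative levels of 0.875, 0.385 and 0.665 in confined libraries and 2.10, 2.15 and 2.69 in unconfined libraries at chr4:3835254-3835953. The confined values were again all below the unconfined ones, and the log2 fold change was -1.14 ± 0.43 with an edgeR adjusted p of 0.0848.

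Rps19, the gene most often mutated in the inherited red cell failure called Diamond-Blackfan anaemia, had an open 5′ peak at chr7:24884009-24884708. Its relative levels were 2.63, 1.35 and 0.665 in confined libraries, against 4.20, 4.51 and 7.71 in unconfined libraries. The groups did not overlap, and the log2 fold change was -0.97 ± 0.38 with an edgeR adjusted p of 0.0988. The 3′ peak of the gene was not tested and had 6, 9 and 1 counts in confined libraries and 5, 33 and 10 in unconfined libraries. Rpl13a, which in human cells also acts outside the ribosome as a translational silencer, was the most open of all 86 peaks in unconfined cells (chr7:45128670-45129369). It had relative levels of 2.88, 0.963 and 1.33 in confined libraries and 4.20, 5.62 and 7.24 in unconfined libraries, with no overlap and a log2 fold change of -0.96 ± 0.38 (edgeR adjusted p 0.101).

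Rpl15, a large-subunit protein, showed 20, 1 and 5 counts in confined libraries and 38, 105 and 115 in unconfined libraries at chr14:18270676-18271375. On the relative scale confined library 1, at 2.50, was the highest confined value and the lowest unconfined value was 3.64. The log2 fold change was -0.85 ± 0.37 (edgeR adjusted p 0.143). Rps3a1, which encodes the small-subunit protein eS1, had 11, 0 and 1 counts in confined libraries, against 21, 51 and 61 in unconfined libraries, at chr3:86142261-86142960. A count of 0 in confined library 2 allows up to 55.7 CPM, the depth-scaled count used in the test, where the unconfined mean was 121 ± 22. The log2 fold change was -0.99 ± 0.46 (edgeR adjusted p 0.168). The calls at these peaks depended on single libraries: without confined library 1, 7 of 65 were lower, against 7.42% of all peaks tested, and these were Rpl37, Rps19, Rpl13a, Rpl15, Rps3a1, Rpl41 (44 bp) and Rpl7l1. The log2 fold change was then -1.56 at Rps19, -1.63 at Rpl13a, -1.79 at Rpl15 and -3.37 at Rps3a1. In the same setting 2 were higher, among them Rps29, against 16% of all peaks tested. Without confined library 3, 4 of 77 were lower (Rpl37, Rps20, Rpl13a and Rpl15), against 4.31%, and without unconfined library 1, 3 of 74 were lower (Rpl37, Rps20 and Rps3a1), against 4.79%. In that last setting the values at Rps19 and Rpl13a were -1.64 and -1.63 and did not pass.

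On the positive side, Rpl8, a large-subunit protein next to the peptidyl transferase centre, had 12, 7 and 6 counts in confined libraries and 3, 38 and 25 in unconfined libraries at chr15:76903896-76904595. Its relative levels were 1.50, 1.35 and 1.99 in confined cells and 0.420, 1.32 and 1.08 in unconfined cells, a narrow separation. The log2 fold change of 1.19 ± 0.46 had an edgeR adjusted p of 0.0948 and stood at 0.34 without the filter, at 0.51 with totals as scaling and at 0.50 without unconfined library 1. Rps16, a small-subunit protein that touches the transfer RNA in the P site, had relative levels of 1.88, 1.93 and 1.33 in confined libraries and 1.54, 1.35 and 1.82 in unconfined libraries (chr7:28350368-28351067). These overlapped, and the log2 fold change was 0.84 ± 0.35 (edgeR adjusted p 0.122). Rpl10a, the protein of the L1 stalk, had 1.50, 1.93 and 0.997 in confined libraries and 1.68, 1.04 and 1.56 in unconfined libraries, also overlapping, with a log2 fold change of 0.86 ± 0.40 (edgeR adjusted p 0.167). Both turned slightly negative without the filter, at -0.04 each. The other positive peaks in this group were the 3′ peak of Rps18, at 0.75 ± 0.47 and -0.10 without the filter, and Rps15, at 0.61 ± 0.44 and -0.18 without the filter. At both the libraries of the groups overlapped.

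The Rps29 peak stood apart from the rest. It lay at chr12:69158970-69159669 and covered all 299 bp of Rn7s1, a gene for 7SL RNA, the RNA of the signal recognition particle and a sequence with many near-identical copies. Its counts were 31, 18 and 51 in confined libraries, against 48, 117 and 142 in unconfined libraries. Confined library 3, the shallowest, was the highest on the relative scale at 16.9, with 3.88 and 3.47 in the other confined libraries and 6.71, 4.06 and 6.15 in unconfined libraries. This peak alone held 17.3% of the ribosomal protein counts of confined library 3. A peak over Rn7s2 (chr12:69361199-69361898), another 7SL gene and no ribosomal protein gene, had similar counts, with 17, 20 and 54 in confined and 43, 124 and 126 in unconfined libraries. The log2 fold change was 1.10 ± 0.44 at Rps29 (edgeR adjusted p 0.105) and 1.10 ± 0.46 at Rn7s2 (edgeR adjusted p 0.122), and at Rps29 it was -0.10 without confined library 3, and 1.53 without confined library 1, where it passed with an edgeR adjusted p of 0.00470. Whether reads here come from Rps29 or a 7SL copy cannot be told apart in these counts. With this peak left out, the level of the set was 1.46, 0.963 and 0.954 in confined libraries and 2.04, 2.03 and 2.31 in unconfined libraries.

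The most open peaks in unconfined cells were Rpl13a, Rps29, Rps19, Rpl41 (44 bp) and Rpl15. Rpl41, whose product is the smallest ribosomal protein, had relative levels of 3.00, 0.963 and 0.997 in confined libraries and 5.45, 4.33 and 4.72 in unconfined libraries at its 5′ peak, without overlap. Its log2 fold change was -0.63 ± 0.34 (edgeR adjusted p 0.245), and -1.46 without confined library 1. The least open were the 3′ peak of Rps15a, Rpl22 and the pseudogene-named Rpl34-ps1, none of which passed the filter. Rps15a had 7, 4 and 4 counts there in confined libraries and 0, 18 and 12 in unconfined libraries, Rpl22 had 8, 2 and 1 in confined and 5, 19 and 7 in unconfined libraries, and Rpl34-ps1 had 6, 5 and 2 in confined and 6, 19 and 6 in unconfined libraries. Differences at such counts were not detectable.

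Genes tied to ribosome-deficient anaemia gave no call. Beside Rps19, the set comprised Rps14, whose loss underlies the anaemia of the human 5q- syndrome, and Rps24, Rps26, Rpl5 and Rpl11, which are mutated in Diamond-Blackfan anaemia. Over the 7 peaks of these 6 genes, 4 were tested and 0 passed in either direction, with a median log2 fold change of -0.39. Rpl11, which with Rpl5 and 5S RNA restrains Mdm2, had relative levels of 1.13, 0.770 and 0.665 in confined libraries and 1.82, 2.19 and 2.86 in unconfined libraries, without overlap, and a log2 fold change of -0.72 ± 0.40 (edgeR adjusted p 0.250). Rpl5 was not tested and had 0.625, 0.385 and 0.997 in confined and 0.699, 1.60 and 1.39 in unconfined libraries, which overlapped. Rps14 had 1.50, 1.35 and 3.66 in confined libraries and 1.12, 2.50 and 2.60 in unconfined libraries, which overlapped. Its log2 fold change was 0.35 ± 0.37, and it was -0.40 without the filter, -0.23 with totals as scaling and -0.27 without confined library 3. Rps26 had 3.38, 0.963 and 0.665 in confined and 3.36, 3.23 and 3.47 in unconfined libraries, where confined library 1 reached the unconfined range, with a log2 fold change of -0.06 ± 0.33, and of -1.17 without confined library 1 (edgeR adjusted p 0.0914). Rps24, also not tested, had 1.88, 0.578 and 0.665 in confined and 2.24, 1.28 and 1.08 in unconfined libraries.

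The stalk proteins Rplp0, Rplp1 and Rplp2, which recruit elongation factors to the large subunit, gave 3 tested peaks and no call. Their log2 fold changes were -0.33 ± 0.38, 0.47 ± 0.35 and 0.06 ± 0.36, and those of Rplp1 and Rplp2 were negative with totals as scaling (-0.18 and -0.59) and without the filter (-0.40 and -0.81). Relative levels at Rplp0 were 1.13, 2.50 and 0.332 in confined libraries and 3.36, 2.32 and 3.16 in unconfined libraries, so that confined library 2 lay inside the unconfined range, and without it the log2 fold change was -1.33 (edgeR adjusted p 0.0872). Rplp1 and Rplp2 overlapped as well, with means of 1.47 ± 0.68 and 1.34 ± 0.47 in confined libraries and 1.82 ± 0.12 and 2.10 ± 0.68 in unconfined libraries. Rpsa, a small-subunit protein also known as a laminin receptor, had 0.875, 0.578 and 0.332 in confined libraries and 1.68, 1.60 and 1.65 in unconfined libraries. Its groups did not overlap, with a log2 fold change of -0.62 ± 0.48 (edgeR adjusted p 0.437).

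The paralogues Rpl3l, Rpl7l1, Rpl22l1 and Rpl36al each had a peak that was tested, with no call, while Rpl34-ps1, described above, was not tested. Rpl3l, which replaces Rpl3 in heart and skeletal muscle, had a log2 fold change of -0.43 ± 0.38 at a 3′ peak shared with Msrb1. Rpl7l1 had -0.54 ± 0.43, Rpl22l1 -0.14 ± 0.36 and Rpl36al -0.70 ± 0.44, the last at a peak shared with Mgat2. Without confined library 1, Rpl7l1 was at -2.18 (edgeR adjusted p 0.0467) and Rpl36al at -1.66 (edgeR adjusted p 0.104). On the relative scale the confined libraries lay below the unconfined ones at each of these peaks, for example 1.25, 0.385 and 0.332 in confined and 1.40, 2.15 and 2.12 in unconfined libraries at Rpl36al. The paralogues Rpl10l, Rpl39l and Rps27l had no peak.

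Outside the symbol rule, Rack1, a small-subunit protein, had 13, 6 and 2 counts in confined and 11, 54 and 53 in unconfined libraries (log2 fold change 0.02 ± 0.37, but -0.62 with totals as scaling). It did not pass, and the peak of Fau, a ubiquitin-like fusion to a small-subunit protein, was not tested. Genes of ribosome biogenesis gave 62 peaks at 56 of 59 genes, of which 39 were tested with 0 calls in either direction and a median of -0.12. Translation factors gave 47 peaks at 39 of 42 genes, of which 36 were tested with 3 lower, 0 higher and a median of -0.41. For comparison, the same test called 2.42% of its 9084 peaks lower and 5.79% higher. Its gene-end peaks had a median of -0.26. Whether translation factor peaks departed from these background values was not tested.

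The 3 translation factor peaks that fell were those of Pabpc1, Eif4b and Eif5. Pabpc1, the cytoplasmic poly(A)-binding protein, had 6, 3 and 1 counts in confined libraries and 25, 79 and 80 in unconfined libraries, a log2 fold change of -1.70 ± 0.42 (edgeR adjusted p 0.00912). Eif4b, a cofactor of the helicase that unwinds messenger leaders, had 4, 4 and 2 counts in confined and 19, 75 and 76 in unconfined libraries (-1.56 ± 0.43, edgeR adjusted p 0.0177). Eif5, the activator of GTP hydrolysis in the initiation complex, had 14, 2 and 0 counts in confined and 23, 92 and 131 in unconfined libraries (-1.44 ± 0.43, edgeR adjusted p 0.0279). All 3 peaks met the low-count filter through the unconfined libraries, where they were high, so these calls are subject to the selection described above. Of these, Pabpc1 passed with any single library left out and also in DESeq2, limma-voom and with the replicate block. Those settings do not remove this selection. With confined library 1 alone on the confined side, the log2 fold changes were -2.29 at Pabpc1, -2.72 at Eif4b and -1.45 at Eif5. That setting has no replicate spread in the confined group. Eif4b did not pass in DESeq2 or limma-voom, with the block, or without unconfined library 3 or confined library 1. Eif5 did not pass in DESeq2, with the block, without unconfined library 3 or confined library 2, or in libraries thinned to the same total. Its value was -3.26 without confined library 1 and -2.06 without unconfined library 1.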

How the data were processed

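The authors deposited 1 table of raw counts of reads per peak for the 6 libraries, with peak coordinates. The submitters' processing notes name featureCounts, SAMtools 1.14, R 4.2.0 and mm10, with no role for any of them. Which aligner and peak caller were run, whether duplicates were removed or reads shifted for Tn5, and which samples gave the peaks is not given in the sources used here. Genes and promoter sequences came from RefSeq tables on GRCm38.p6 (mm10), which give gene ends but no exons.

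The test was run in R 4.3.3 with edgeR 4.0.16 (filterByExpr with a minimum count of 10, TMM over tested peaks, glmQLFit, glmQLFTest, no covariate, Benjamini-Hochberg over 9084 tested peaks); standard errors were derived from the F statistic. Relative levels divide a count by the library's mean count per peak and need neither filter nor TMM. DESeq2 1.42.0 and limma-voom 3.58.1 were alternative tests, beside other scalings and filters, single libraries left out, thinning, other windows, core genes alone and 1 peak per gene. Shares have 95% Clopper-Pearson intervals (SciPy 1.17.1, Python 3.11.15), which cover counting error only, since PCR reads without molecular identifiers are not independent molecules. A floor of 3 counts is 25.0, 55.7 and 94.3 CPM in confined libraries and 20.2, 5.70 and 6.13 in unconfined libraries.

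Members, gene lists, motifs and tests were chosen with earlier results of these data known. Peaks named are the 6 of smallest p on either side of 0, the 5 most and 3 least open in unconfined cells, those of anaemia genes, stalk proteins, Rpsa and paralogues, and, outside the set, Rack1, Fau and called peaks of translation factors and ribosome biogenesis; a few genes that meet these rules or belong to the lists are not reported here. The labels give same-numbered libraries the same experimental batch number. Across peaks, deviations of such pairs from their group means had r = 0.0422, 0.0654 and -0.0542, against -0.170 to 0.115 for other numbers. Replicates of a group differed by more than sampling noise (chi-square per degree of freedom 1.25 to 1.86), so no library was counted as a duplicate.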

Additional observations from a re-analysis of the deposited data

How the results depend on the processing

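The share of counts at ribosomal protein peaks was lower in confined cells with any single library left out and with confined library 1 alone. It was also lower with other windows and with core genes alone or 1 peak per gene. Scaling, filter and test do not enter the share, so those alternatives could not change it, and thinning keeps it nearly fixed. The number of calls and the median fold change moved. Peaks called lower numbered 0 in the test as designed, 21 with library totals as the scaling, 11 without a filter, 1 with a window of 2 kb, and 0 to 7 when a single library was left out, where peaks called higher numbered 0 to 2. The 7 lower and 2 higher came without confined library 1, where 7.42% and 16% of all tested peaks were called. The median log2 fold change of -0.30 was -0.94 with totals, -1.05 without a filter, -0.14 with limma-voom, -0.77 with confined library 1 alone on the confined side (its spread assumed to be that of the others), and -0.78 to -0.36 with single libraries left out. It was reversed, at 0.28, in libraries thinned to the same total, where 7 ribosomal protein peaks were left to test. Single peaks with fold changes near 0 or positive also changed sign, and the cause was not tested. With totals, Rplp1 was at -0.18, Rplp2 at -0.59, Rps14 at -0.23, Rps15 at -0.03 and Rack1 at -0.62. Without a filter, Rpl10a and Rps16 were at -0.04, Rplp1 and Rps14 at -0.40, Rplp2 at -0.81, Rps15 at -0.18, the 3′ peak of Rps18 at -0.10 and Rack1 at -0.83. With confined library 1 alone, Rpl10a was at -0.06, Rplp2 at -0.44, Rps14 at -0.80, Rps15 at -1.17, Rps29 at -0.73 and Rack1 at -0.49. A filter on the mean put Rplp2 at -0.03 and Rack1 at -0.07, limma-voom put Rps26 at 0.13 and Rpl22l1 at 0.0, and thinning put Rpl41 (44 bp) at 0.12 and Rps26 at 1.02. With single libraries left out, values ran from -1.33 to 0.06 at Rplp0, -0.06 to 0.38 at Rplp1, -0.53 to 0.13 at Rplp2, -0.27 to 0.72 at Rps14, -0.12 to 1.27 at Rps15, -0.10 to 1.53 at Rps29 and -0.54 to -0.04 at Rack1. With the replicate block, 0 peaks were called in either direction and the median was -0.26, and among named peaks only Eif4b and Eif5 changed their call. Leaving out the Rps29 peak was chosen after seeing the data and gave 0 calls. Depth limits single peaks most in confined libraries 2 and 3.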
